A study of Mus musculus with 4 samples.

Results

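Glycolysis and the response to low oxygen were followed through 35 genes on 4 single-colour arrays of the mouse embryonic stem (ES) cell line E14Tg2A. The genes were taken as every probe that the array files name after 1 of the 35 symbols, whatever its signal, which gave 62 probes of the 55681 on the array and 35 of its 35923 gene names. They comprised 17 glycolytic enzymes, 7 transporters and flux regulators, 9 other targets of hypoxia-inducible factor (HIF) and the 2 HIF alpha subunits Hif1a and Epas1. A further set of lists held 86 genes around the same pathways, of which 2 (Ak3l1 and Tigar) were not found under those names.

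All 4 groups were E14Tg2A cells of strain 129/Ola with no genetic change. The ES group (day 0) grew attached to gelatin in medium with serum and LIF. The 3 other groups were epiblast-like aggregates (ELA), floating clusters kept for 2 days in a defined medium without serum or LIF. ELA without a drug is called ELA below, the AZA group received 50 nM 5-azacytidine, which blocks DNA methyltransferases, and the CHQ group received 100 µM 5-carboxy-8-hydroxyquinoline. Each group was 1 array that held pooled RNA of 3 experiments. No spread between experiments could therefore be computed, and no test was run. The only spread on hand was that of repeated spots on an array, which put a difference between 2 arrays at 0.21 log2 units (1.15-fold). A call required a log2 difference of at least 1 (2-fold), a mean log2 level of at least 7.5 and a signal well above background on at least 1 of the 2 arrays. Both treatments were set against the same ELA array, so their differences are not independent of each other. ES and ELA lay on slide 1, and AZA and CHQ on slide 2, so for either treatment against ELA the drug and the slide cannot be told apart. ELA against ES and CHQ against AZA were comparisons within a slide.

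As background, glycolysis turns glucose into pyruvate and lactate and is the main sugar pathway of rapidly dividing pluripotent cells. HIF is a transcription factor made of an alpha and a beta subunit. When oxygen is plentiful, prolyl hydroxylases of the Egln family mark the alpha subunit for destruction through Vhl, and when they are inactive the alpha subunit accumulates and switches on genes of glycolysis, blood vessel growth and mitochondrial turnover. The Egln enzymes, like the JmjC histone demethylases and the Tet enzymes, need iron and 2-oxoglutarate, and CHQ is a broad inhibitor of 2-oxoglutarate oxygenases. HIF alpha is thus controlled mainly as a protein, which these arrays did not measure.

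The arrays matched their labels as pluripotent cells. The 4 pluripotency markers Pou5f1, Sox2, Lin28a and Utf1 were well above background on all 4 arrays, with log2 levels from 12.78 to 16.52. The 5 ground state markers were lowest in ELA, at 9.23 to 12.53, and the log2 of their summed level was 17.08 (ES), 13.94 (ELA), 17.53 (AZA) and 16.11 (CHQ). Of the 4 endoderm markers, Gata4 lay between 7.46 and 7.73 on all 4 arrays. Gata6, Sox17 and Afp were not well above background in ES or ELA, at 6.06 to 6.77, and were well above it on both treated arrays, at 8.06, 7.76 and 6.89 (AZA) and 9.89, 9.51 and 8.56 (CHQ). Summed, the 4 reached 8.73 (ES), 8.83 (ELA), 9.66 (AZA) and 11.15 (CHQ). Between 55.11% (ELA) and 69.23% (CHQ) of spots were well above background, and the median local background was 59 and 77 units on slide 1 and 14 and 13 on slide 2. The 3 neural markers had summed levels of 12.74 (ES), 13.38 (ELA), 10.93 (AZA) and 10.39 (CHQ), set mainly by Tubb3, whereas Sox1 lay between 7.78 and 8.18. The summed levels of the 3 trophoblast and 3 fibroblast markers lay within 7.84 to 8.64 and 9.36 to 10.07. Of the 3 primed state markers, Fgf5 was highest in ELA, at 11.62 (ES), 14.48 (ELA), 11.94 (AZA) and 13.33 (CHQ), Pou3f1 lay at 14.38, 15.21, 13.65 and 15.50, and Otx2 between 15.29 and 16.20. The part of these marker shifts in the differences below was not tested. In such bulk RNA a change in the share of a cell type and a change per cell cannot be told apart.

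HIF binds the core letters ACGTG or GCGTG of the hypoxia response element, so the windows before the gene starts are shown for 4 HIF targets that were called higher with CHQ and for Ldha, which was not. The windows hold 250 bases upstream of a start in RefSeq (mouse build GRCm38.p6), written 5′ to 3′ on the strand of the gene, with every ACGTG or GCGTG, read on either strand, in capitals. Positions count back from -1, the base before the start.
Bnip3, chr7:138909507-138909756, minus strand: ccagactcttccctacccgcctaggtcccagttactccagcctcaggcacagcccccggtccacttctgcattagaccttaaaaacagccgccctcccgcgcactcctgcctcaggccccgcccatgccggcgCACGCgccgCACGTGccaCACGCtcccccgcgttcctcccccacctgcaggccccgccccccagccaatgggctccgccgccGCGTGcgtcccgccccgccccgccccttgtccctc
Ankrd37, chr8:45999851-46000100, minus strand: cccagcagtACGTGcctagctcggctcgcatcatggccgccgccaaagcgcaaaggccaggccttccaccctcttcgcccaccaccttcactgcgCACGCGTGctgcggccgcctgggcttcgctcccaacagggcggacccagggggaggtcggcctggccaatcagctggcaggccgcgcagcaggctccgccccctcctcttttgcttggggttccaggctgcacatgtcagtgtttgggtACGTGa
Adm, chr7:110627407-110627656, plus strand: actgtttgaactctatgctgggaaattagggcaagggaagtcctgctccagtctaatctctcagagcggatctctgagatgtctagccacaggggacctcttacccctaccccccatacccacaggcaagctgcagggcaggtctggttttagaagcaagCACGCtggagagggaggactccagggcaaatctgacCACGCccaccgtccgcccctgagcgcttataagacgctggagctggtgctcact
Ero1l, chr14:45318573-45318822, minus strand: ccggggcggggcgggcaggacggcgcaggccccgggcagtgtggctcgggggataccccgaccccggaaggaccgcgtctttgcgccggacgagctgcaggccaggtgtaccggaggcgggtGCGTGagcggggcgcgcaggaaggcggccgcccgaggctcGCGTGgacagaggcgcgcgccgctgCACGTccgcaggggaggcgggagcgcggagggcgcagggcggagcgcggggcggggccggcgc
Ldha, chr7:46845554-46845803, plus strand: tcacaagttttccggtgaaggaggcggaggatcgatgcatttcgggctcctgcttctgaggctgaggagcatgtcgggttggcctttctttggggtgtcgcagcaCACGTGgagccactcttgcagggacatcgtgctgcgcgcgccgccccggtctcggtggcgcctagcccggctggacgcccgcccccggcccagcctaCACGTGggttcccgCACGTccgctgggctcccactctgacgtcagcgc

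The Bnip3 window held 5 matches, at -117, -108, -107, -99 and -35, and the pair at -108 and -107 is the palindrome CACGTG, which reads as ACGTG on both strands. The Ankrd37 window held 4 matches, at -241, -155, -152 and -6, of which those at -155 and -152 overlap. The Ero1l window held 3 and the Adm window 2, at -90 and -54, both of the GCGTG form. The Ldha window shown held 5 matches of ACGTG, and its palindromes begin at -145 and -48, whereas a second Ldha window held only 1 match, of GCGTG. Vegfa, also called with CHQ and not shown, had a window with 2 matches and another with 0. RefSeq windows were found for 31 of the 35 genes, 47 windows in all. ACGTG lay in 44.7% of these windows and in 16.6% of the 32851 windows of all genes. GCGTG lay in 53.2% against 28.2%, and either core in 78.7% against 38.6%. ACGTG was found for 5 of the 8 genes with a window that were called with CHQ and for 12 of the 23 that were not. A match is a run of letters and does not show that HIF binds there.

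The HIF targets outside glycolysis differed most between the treated and the untreated arrays. Of the 8 whose level allowed a call, 5 were called higher with AZA and 6 with CHQ, and none was called lower. Over all genes tested, AZA against ELA gave 14.3% higher and 11.4% lower calls, and CHQ against ELA gave 14.8% and 11.9%. The median log2 difference of the 9 genes was 1.37 with AZA and 1.83 with CHQ, beside -0.02 and -0.03 over all genes. For 5 of them, Vegfa, Adm, Ndrg1, Bnip3 and Ero1l, both treated arrays lay at least 1 log2 unit above both untreated arrays, a pattern that 5.48% of all genes tested showed.

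Ndrg1, a stress-responsive gene linked to growth arrest and differentiation, had log2 levels of 11.13 (ES), 10.93 (ELA), 13.91 (AZA) and 14.96 (CHQ). The untreated arrays lay together and both treated arrays far above them. Its level was 7.89-fold higher with AZA and 16.4-fold higher with CHQ than in ELA. Adm, which encodes the vessel-dilating peptide adrenomedullin, had log2 levels of 7.89, 8.08, 10.81 and 12.09 in the same order. It was near the low end of the scale in both untreated groups and rose by 6.65-fold with AZA and 16.1-fold with CHQ. Adm and Ndrg1 were also the 2 genes of the 35 that were called higher in CHQ than in AZA, where 5.56% of all genes tested were called higher. This comparison lay within slide 2, and it gave 2.42-fold for Adm and 2.08-fold for Ndrg1, although for Ndrg1 the log2 difference of 1.05 fell to 0.81, 0.72 and 0.90 under the 75th percentile, spike-in and cyclic loess scalings, which ended the call.

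Vegfa, the main growth factor for blood vessels, had log2 levels of 8.53 (ES), 9.40 (ELA), 12.28 (AZA) and 11.76 (CHQ). The order of the treated arrays was thus the reverse of that for Adm and Ndrg1. It was 7.35-fold higher with AZA and 5.15-fold higher with CHQ, and its second, dimmer probe gave log2 differences of 1.92 and 1.21. Ero1l, named Ero1a in RefSeq, is an oxidase that helps form disulfide bonds in the endoplasmic reticulum. Its log2 levels were 8.44, 8.50, 10.65 and 10.64. The treated arrays differed from each other by less than the spread of repeated spots, and they lay 4.45-fold (AZA) and 4.42-fold (CHQ) above ELA.

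Bnip3, a mitochondrial outer membrane protein that marks mitochondria for autophagy, had log2 levels of 14.70, 15.34, 16.71 and 17.17. It was 2.58-fold higher with AZA and 3.55-fold higher with CHQ, although the AZA call was lost, at log2 differences of 0.96 and 0.95, under the 75th percentile and spike-in scalings. A second probe gave log2 differences of 1.06 and 1.53, and the last and dimmest probe gave 0.54 with AZA and had no usable spot on the CHQ array. Its relative Bnip3l, which shares the role in mitochondrial turnover, had log2 levels of 13.74, 14.30, 14.75 and 14.40, and no call was made. Across the 4 probes of Bnip3l the differences from ELA ran from -0.33 to 0.60 with AZA and from -0.49 to 0.10 with CHQ, so its direction depended on the probe. Ankrd37, an ankyrin repeat protein, had log2 levels of 11.13, 11.35, 11.99 and 12.58, and only the 2.34-fold difference with CHQ was called, which the spike-in scaling brought just under the threshold. Higd1a, a small mitochondrial protein, stayed between 14.27 and 14.48 on all arrays. Adm, Ndrg1, Ankrd37 and Ero1l each rest on 1 probe with 1 spot per array. Mxi1, a Myc antagonist, was well above background only in ELA, at 6.83, and no level is read from it elsewhere.

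**Figure D1:**
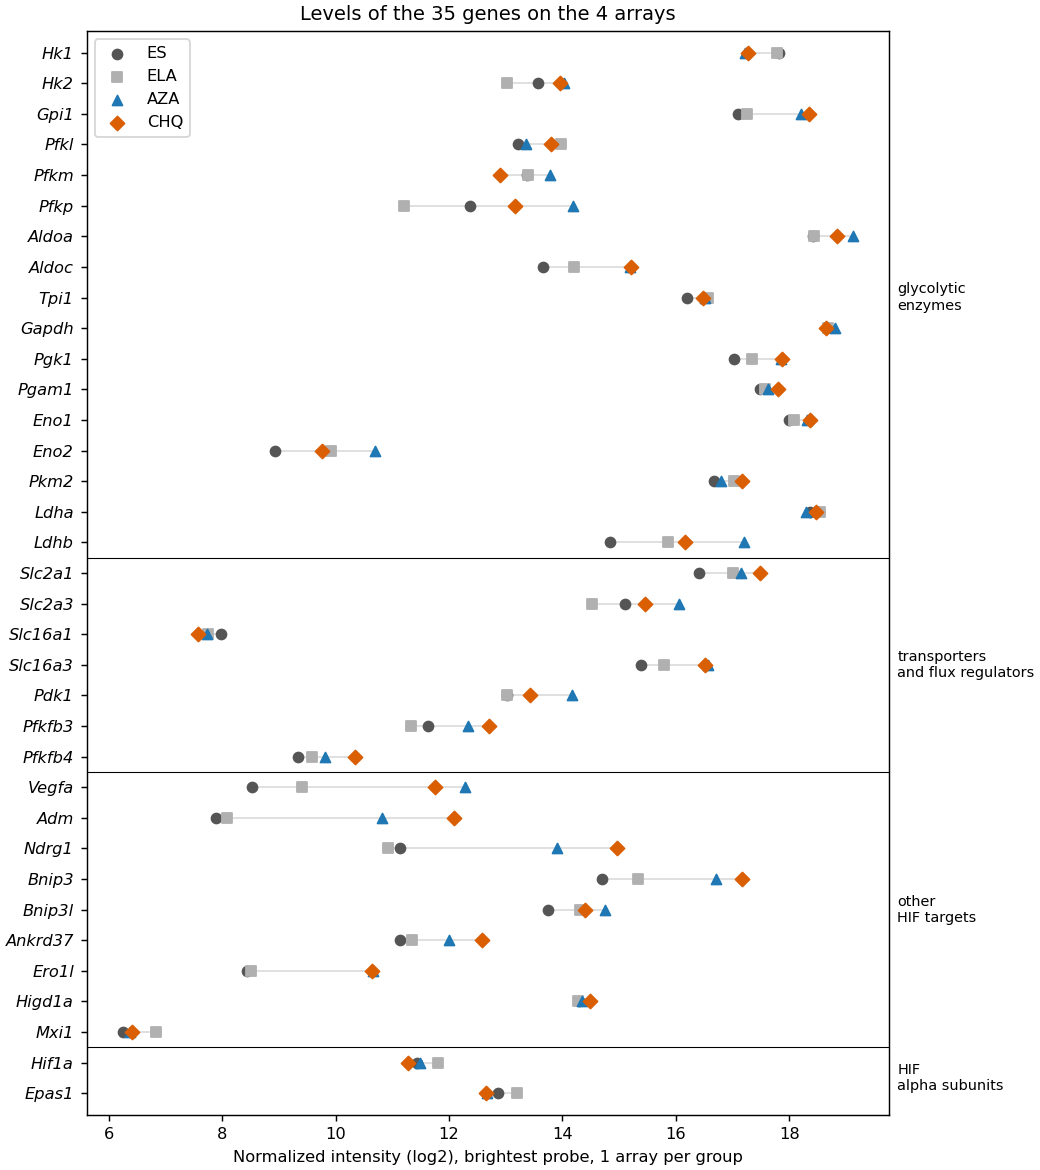
The log2 normalized intensity (horizontal axis) of the brightest probe of each of the 35 genes (rows), with 1 point for each of the 4 arrays and lines between gene classes. Vegfa, Adm, Ndrg1, Bnip3 and Ero1l show the treated arrays at least 1 log2 unit to the right of both untreated arrays, while Gapdh, Ldha and Higd1a show all points close together.

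The transporters and flux regulators came next. The median log2 difference of the 7 genes was 0.78 with AZA and 0.73 with CHQ, but 0.42 and 0.18 under the 75th percentile scaling and 0.35 and 0.07 when the arrays were scaled on spike-in RNA. Slc2a3, a glucose transporter with high affinity, had log2 levels of 15.10 (ES), 14.52 (ELA), 16.06 (AZA) and 15.46 (CHQ). ELA was the lowest array, and the 2.91-fold difference with AZA was called. Pdk1 encodes a kinase that shuts pyruvate out of the citric acid cycle by inhibiting pyruvate dehydrogenase, and its log2 levels were 13.03, 13.02, 14.17 and 13.43. AZA alone stood apart, 2.22-fold above ELA, and its log2 difference of 1.15 fell just under the call threshold, to 0.94 and 0.96, in the 75th percentile and spike-in scalings. Pfkfb3, which makes the fructose 2,6-bisphosphate that activates phosphofructokinase, had log2 levels of 11.62, 11.33, 12.33 and 12.70. It was called with CHQ (2.59-fold) at its brightest probe, and its second probe, which lay close to the low end of the scale, gave log2 differences of 0.01 with AZA and 0.59 with CHQ. In the mean over both probes the CHQ difference was 0.98 and the call was lost.

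The other 4 genes of the class were not called. Slc2a1, the widely used glucose transporter, ran from 16.40 in ES over 17.00 and 17.14 to 17.48 with CHQ. Slc16a3, which exports lactate, had log2 levels of 15.39, 15.79, 16.57 and 16.52, with differences of 0.78 and 0.73 from ELA. Its second probe gave 0.71 with AZA, and the sign of the Slc16a3 difference held under each scaling although it shrank to 0.04 for CHQ under the spike-in scaling. Slc16a1, which carries lactate in either direction, stayed low, between 7.58 and 7.98, and Pfkfb4 ran from 9.33 in ES to 10.34 with CHQ.

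The glycolytic enzymes shifted little as a class, and the sign of their median rested on the scaling. Quantile normalization gave a median log2 difference of 0.40 with AZA and 0.24 with CHQ over the 17 enzymes, whereas the 75th percentile scaling gave -0.35 and -0.56 and the spike-in scaling gave -0.32 and -0.72. Over the 1155 genes with a mean log2 level of at least 16, the median with AZA was -0.06 after quantile normalization and -0.70 after 75th percentile scaling, and with CHQ it was -0.11 and -0.94. Of the 35 genes, 13 were this bright, and their median in AZA lay at 0.13 and -0.55 under these scalings and in CHQ at 0.28 and -0.66. Bright probes as a whole thus moved with the processing, and the direction of the enzyme class against ELA was not settled by these arrays. The 9 other HIF targets kept a median of at least 0.95 with AZA and 1.08 with CHQ under each of the 8 ways of processing.

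**Figure D2:**
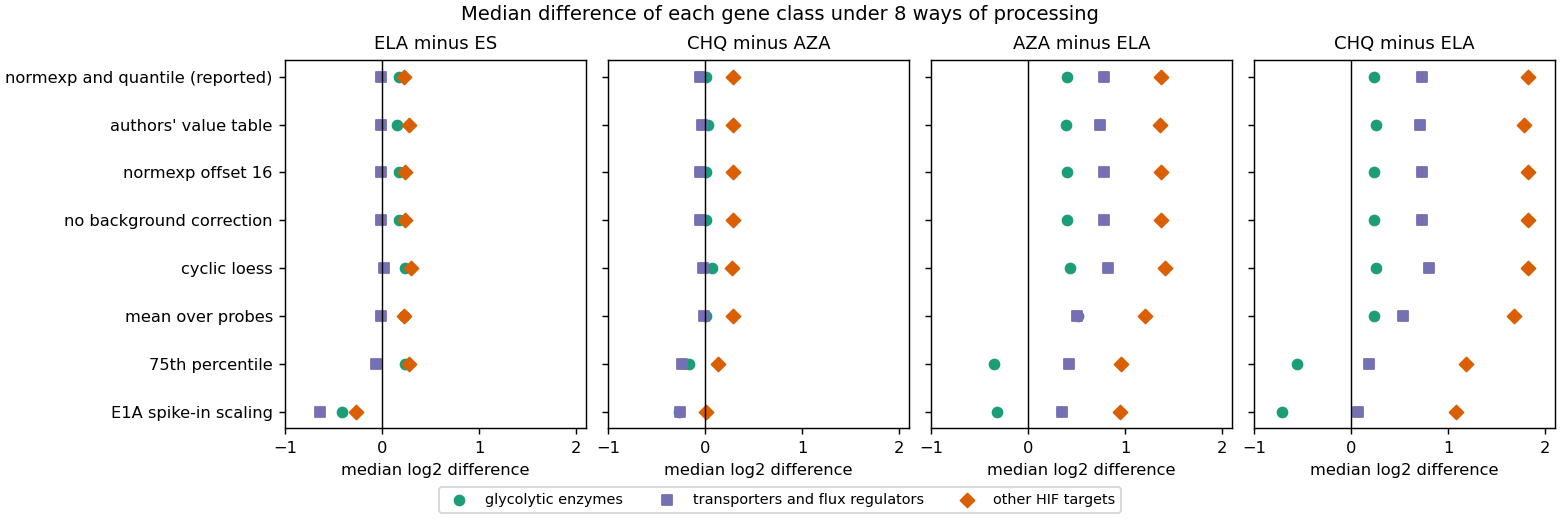
Median log2 difference (horizontal axis) of 17 glycolytic enzymes, 7 transporters and flux regulators and 9 other HIF targets in each comparison (panels), under 8 ways of processing the same arrays (rows). The other HIF targets stay to the right of 0.9 in both comparisons with ELA, whereas the enzymes cross 0 under the 75th percentile scaling (-0.35 and -0.56) and the spike-in scaling (-0.32 and -0.72).

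Of the 17 enzymes, 2 were called higher with AZA and 2 with CHQ, 11.8% in each case, beside 14.3% and 14.8% of all genes tested. None was called lower. Under cyclic loess 4 were called higher with each drug, beside 3151 of 19450 genes (AZA) and 3315 of 19551 (CHQ), and under the 75th percentile scaling 1 was. Hk1 and Ldha with AZA and Hk1, Gapdh and Ldha with CHQ were called lower under both the 75th percentile and the spike-in scaling. Over all genes tested, lower calls under these 2 scalings numbered 2482 of 16885 and 2845 of 18774 with AZA. With CHQ they numbered 3201 of 16863 and 4205 of 18540. Pfkp, the platelet form of phosphofructokinase and the committed step of glycolysis, varied most. Its log2 levels were 12.36 (ES), 11.21 (ELA), 14.19 (AZA) and 13.17 (CHQ). ELA was lowest, with 7.90-fold more on the AZA array and 3.88-fold more on the CHQ array, and CHQ was 2.04-fold below AZA within slide 2. These values are those of the brightest probe. The second probe of Pfkp lay at 8.45, 8.16, 8.35 and 7.65, and gave 0.19 for AZA and -0.50 for CHQ against ELA, so the higher levels with the drugs were not seen there, and -0.69 for CHQ against AZA, the same direction as the brightest probe. In the mean over both probes the difference from ELA was 1.59 with AZA and 0.73 with CHQ, so the call with CHQ was lost.

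Ldhb, the lactate dehydrogenase subunit that favours pyruvate, had log2 levels of 14.84 (ES), 15.86 (ELA), 17.20 (AZA) and 16.16 (CHQ). It was 2.53-fold higher with AZA than in ELA, a call that the 75th percentile (0.88) and spike-in (0.87) scalings did not make. CHQ lay 2.05-fold below AZA within the slide. Pfkp and Ldhb were the 2 genes of the 35 called lower in CHQ than in AZA, where 4.82% of all genes tested were called lower. Both calls stood at the threshold and were lost under cyclic loess (-0.97 and -0.99) and in the authors' value table, where Pfkp fell just short of the threshold and Ldhb stood at -0.98. The call of Pfkp was also lost in the mean over its probes (-0.86). Gpi1, the isomerase that follows hexokinase, had log2 levels of 17.09, 17.26, 18.20 and 18.34. The treated arrays lay above both untreated arrays, and the 2.12-fold difference with CHQ was called, but its log2 value of 1.08 shrank to 0.22 under the 75th percentile and 0.12 under the spike-in scaling. The 3 probes of Gpi1 nearly coincide on the genome and gave 0.94 to 1.10 with AZA and 1.08 to 1.25 with CHQ.

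The remaining enzymes were not called against ELA. Hk2, a hexokinase that HIF is known to induce, had log2 levels of 13.56, 13.02, 14.02 and 13.96, just short of the threshold in AZA, and stayed at 0.56 or more with either drug under each scaling. Aldoc, an aldolase typical of brain, had levels of 13.65, 14.20, 15.19 and 15.20, with differences of 0.99 and 1.00 that fell to 0.73 and 0.45 under the spike-in scaling. Aldoa and Pgk1, both textbook HIF targets, gave 0.68 and 0.51 with AZA and 0.39 and 0.53 with CHQ, and all 4 of these values changed sign under the 75th percentile and spike-in scalings. Pfkm, the muscle form of phosphofructokinase, was measured on 10 spots per array, with log2 levels of 13.37, 13.39, 13.78 and 12.90. CHQ was the lowest of its 4 arrays and AZA the highest. Eno2, the neuronal enolase, had levels of 8.93, 9.92, 10.69 and 9.76, and Pfkl, the liver form of phosphofructokinase, 13.21, 13.97, 13.36 and 13.80. The brightest probes of Gapdh, Pgam1, Tpi1, Eno1, Pkm2 (Pkm in RefSeq) and Ldha moved by 0.28 or less from ELA under quantile normalization.

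Several enzymes had probes that did not move alike. The brightest Hk1 probe fell slightly, at 17.82, 17.78, 17.22 and 17.27, whereas a second probe rose from 12.35 in ELA to 14.57 with AZA, with 11.95 in ES and 12.91 with CHQ. The last Hk1 probe had levels of 8.59, 8.85, 9.03 and 7.98. The probes of Ldha gave differences of -1.91 to -0.24 with AZA and -1.05 to -0.08 with CHQ, those of Tpi1 -1.12 to -0.04 and -0.89 to -0.09, and the 8 of Gapdh -0.80 to 0.74 and -0.67 to 0.65. For the brightest Pgk1 probe and for 2 Gapdh probes the coordinates in the files (build mm9) lie on another chromosome than the gene: chr3:57906830-57906894 for Pgk1 and chr8:94212520-94212579 and chr7:59003199-59003257 for Gapdh. Signal from near-identical copies of these genes cannot be separated there.

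**Figure D3:**
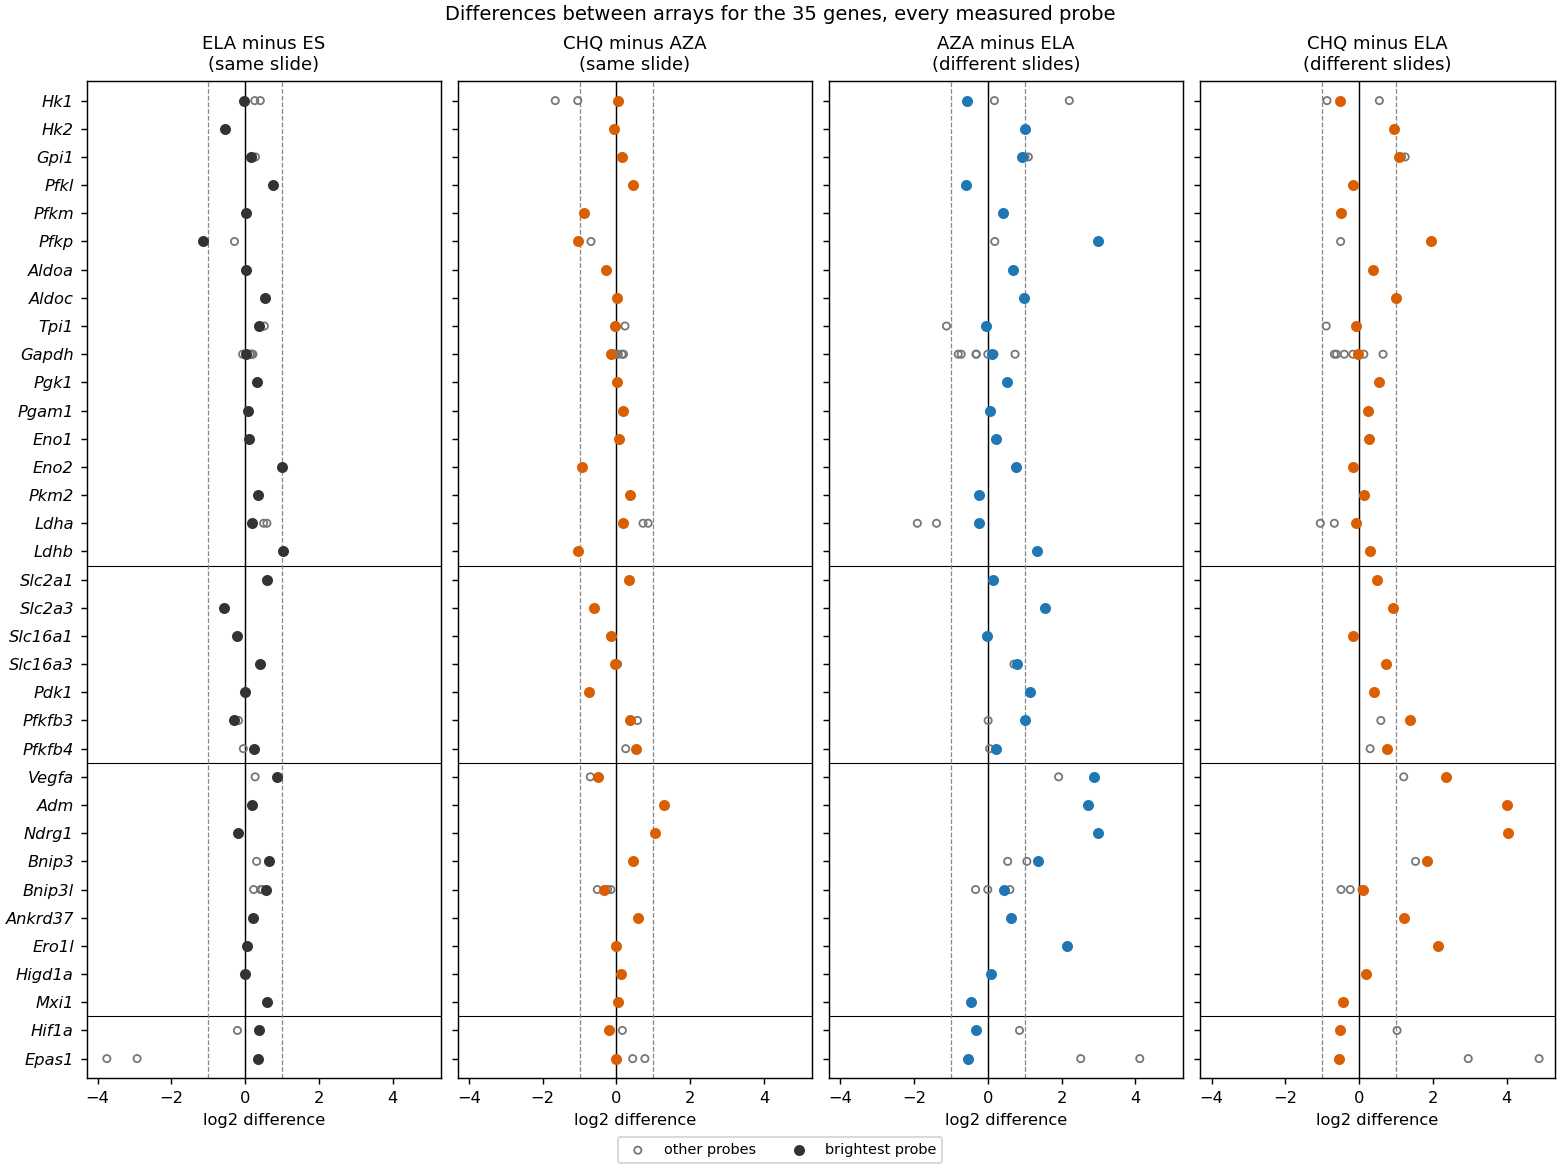
The log2 difference between 2 arrays (horizontal axis) for the brightest probe (filled) and any other probe (open) of each of the 35 genes (rows), with dashed lines at the call threshold of 1. The comparisons within a slide stay mostly between the lines, whereas Vegfa, Adm, Ndrg1, Bnip3 and Ero1l lie past 1 in both comparisons with ELA.

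Neither HIF alpha subunit was called at its brightest probe. Hif1a had log2 levels of 11.43 (ES), 11.80 (ELA), 11.48 (AZA) and 11.27 (CHQ). Its second probe was close to the background, not well above it in ELA, and moved the opposite way, at 6.94, 6.73, 7.59 and 7.76. Epas1, which encodes HIF-2 alpha, had levels of 12.86, 13.20, 12.66 and 12.65 at the brightest probe. Its 2 other probes differed, with levels of 13.31, 9.56, 13.67 and 14.44 at chr17:87232615-87232674 and of 10.40, 7.46, 9.99 and 10.43 at chr17:87230587-87230646 (mm9). At both of these probes ELA alone was low, by -3.75 and -2.93 from ES, and AZA lay 4.12 and 2.52 and CHQ 4.88 and 2.96 above ELA. The brightest probe, at chr17:87230678-87230737 (mm9), lies beside the dimmer of the other 2. The Epas1 level in ELA therefore cannot be given as 1 value, and the files do not say which transcript each probe reads.

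**Figure D4:**
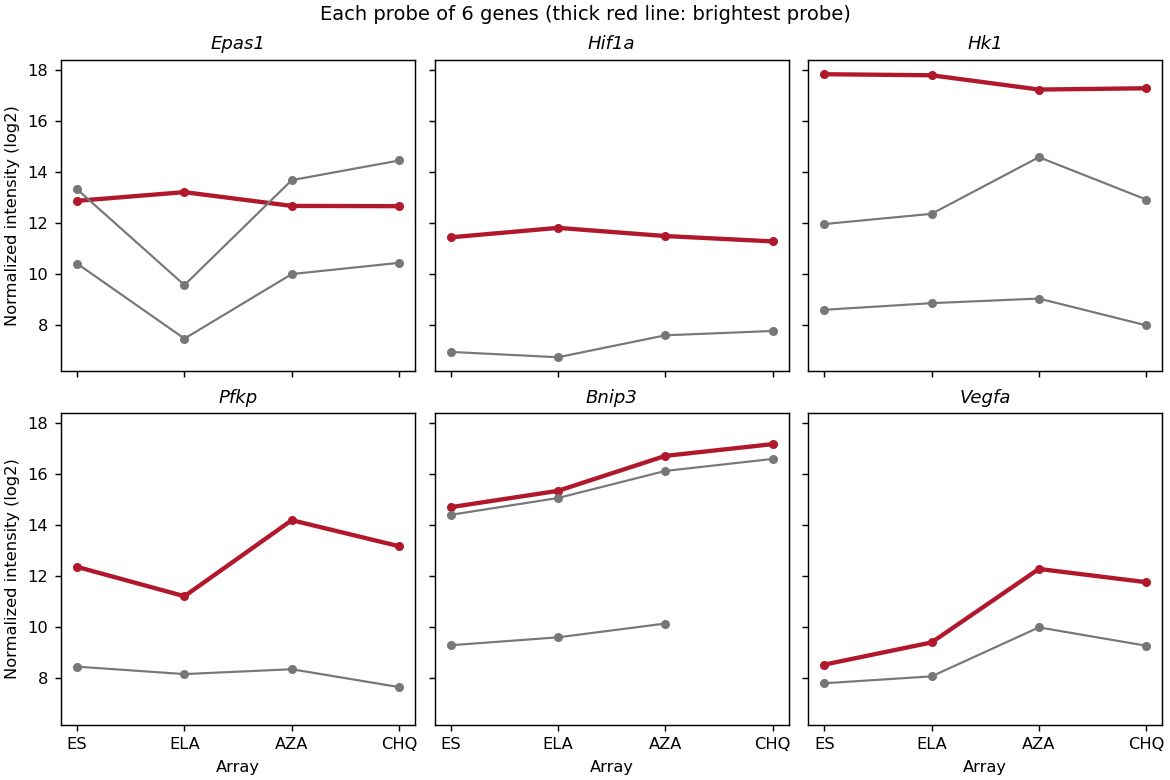
The log2 normalized intensity (vertical axis) of every probe of 6 genes on the 4 arrays (horizontal axis), with the brightest probe as a thick line. The probes of Bnip3 and Vegfa move in the same direction by different amounts, whereas 2 probes of Epas1 drop in ELA (to 9.56 and 7.46) where the brightest stays at 13.20.

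Between ES and ELA few of the 35 genes were called at their brightest probe. Of the 34 tested, 1 was called higher (Ldhb, 2.03-fold) and 1 lower (Pfkp, 2.21-fold), 2.94% in each direction, against 4.47% higher and 5.6% lower over all genes. The Ldhb call, at a log2 difference of 1.02, was lost under the 75th percentile (0.88) and spike-in (0.35) scalings, and the Pfkp call, at -1.15, in the mean over probes (-0.72), where Epas1 was the lower call instead (-2.12) through its 2 probes at -3.75 and -2.93. The medians were 0.17 for the enzymes, -0.01 for the transporters and flux regulators and 0.22 for the other HIF targets, and under the spike-in scaling they became -0.42, -0.64 and -0.27, where the median of all genes tested moved to -0.59. Vegfa (0.87) and Eno2 (0.99) came close to the call threshold.

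Across both treatments, 9 of 34 genes (26.5%) were called higher with each drug, beside 14.3% (AZA) and 14.8% (CHQ) of all genes tested, and 5 of 34 (14.7%) had both treated arrays at least 1 unit above both untreated ones, beside 5.48%. No member had both treated arrays that far below, against 3.39% of all genes tested. Without a minimum gap, both treated arrays lay above both untreated arrays for 23 of 34 genes (67.6%) and below for 3 (8.82%), beside 27.3% and 36.4% of all genes tested. The first of these counts fell to 14 with 75th percentile scaling and to 8 with spike-in scaling. Under these scalings 8 and 10 of the 17 enzymes had both treated arrays below both untreated ones. The matching shares of all genes were not computed there. The median of all genes tested moved down as well. For AZA against ELA it went from -0.07 to -0.2 and -0.26, and for CHQ against ELA from -0.09 to -0.26 and -0.39. How far the enzyme counts follow this shift was not tested. Vegfa, Adm, Ndrg1 and Ero1l kept a gap of at least 1 under both scalings.

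The oxygen-sensing machinery was read from 9 further genes. Egln3, the hydroxylase that is itself a HIF target, had log2 levels of 9.91 (ES), 11.10 (ELA), 11.93 (AZA) and 12.42 (CHQ). It was called higher in ELA than in ES (2.29-fold) and in CHQ than in ELA (2.49-fold). Egln1, the main oxygen sensor, was low throughout, at 7.22, 7.98, 7.28 and 7.66, and Egln2 had 14.36, 14.63, 14.01 and 14.06. Vhl, which targets HIF alpha for destruction, had 11.61, 11.75, 11.99 and 11.32, and Hif1an, which hydroxylates an asparagine of HIF alpha, had 10.17, 10.16, 9.44 and 9.72. None of these 4 genes was called in any comparison. Arnt, the beta subunit that pairs with HIF alpha, was 2.27-fold higher with AZA and 2.19-fold higher with CHQ than in ELA, at levels of 11.79, 11.52, 12.71 and 12.65, and its second probe gave log2 differences of 1.53 and 0.46. Arnt2, its relative, went the other way, with 7.66, 8.78, 7.09 and 7.69. Hif3a was called higher in ELA than in ES at its brightest probe (11.28 and 12.81), with 12.17 and 12.15 on the treated arrays, but its 3 probes gave -0.22 to 1.53 in this comparison, -0.71 to 1.23 for AZA against ELA and -0.82 to 1.31 for CHQ against ELA. Cited2, which competes with HIF alpha for its coactivators, stayed between 12.02 and 12.45. The 9 genes gave 3 higher calls in ELA against ES (33.3%, beside 4.47% of all genes tested), Egln3, Arnt2 and Hif3a, and these were all lost under the spike-in scaling. In AZA against ELA, 1 of the 9 was called higher (Arnt, 11.1%, beside 14.3% of all genes) and 1 lower (Arnt2, 11.1%, beside 11.4%). In CHQ against ELA these counts were 2 (Egln3 and Arnt, 22.2%, beside 14.8%) and 1 (Arnt2, 11.1%, beside 11.9%). The spike-in scaling gave 1 higher and 2 lower calls with CHQ, beside 2053 and 4205 of 18540 genes. No gene of the list was called lower with either drug under the 75th percentile, or with CHQ under cyclic loess.

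A list of 26 further HIF targets also lay mostly above ELA on the treated arrays. Like the members, this list was chosen with earlier results of these data known, so its counts are not independent support. With AZA 14 of 25 tested were called higher and 0 lower, and with CHQ 18 of 24 were called higher and 1 lower (Plod1), where 14.3% and 14.8% of all genes tested were called higher. The medians were 1.21 and 1.55, and 1.08 and 1.34 over all 26 under the 75th percentile scaling, and for 10 genes both treated arrays lay at least 1 unit above both untreated ones, as for 5.48% of all genes tested. Under the spike-in scaling 4 such genes were left (P4ha2, Plod2, Ddit4 and Stc2), and Car12 and Selenbp1 were not among them. Car12, a carbonic anhydrase of the cell surface, had log2 levels of 9.85, 8.77, 11.44 and 12.34, so it was 6.37-fold higher with AZA and 11.9-fold higher with CHQ. Plod2, a collagen lysyl hydroxylase that itself uses 2-oxoglutarate, had 10.21, 9.93, 12.23 and 13.09, and was 8.91-fold higher with CHQ. Ddit4, an inhibitor of mTOR signalling, had 14.70, 15.21, 17.43 and 18.26, and was 8.31-fold higher with CHQ. Selenbp1, a selenium-binding protein, had 9.82, 8.87, 12.09 and 11.26, and was 9.32-fold higher with AZA.

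Car9, a carbonic anhydrase that is among the most widely used markers of hypoxia, set AZA apart from CHQ. Its log2 levels were 7.17 (ES), 6.97 (ELA), 10.81 (AZA) and 7.15 (CHQ). It was well above background on all 4 arrays and highest on the AZA array, 14.3-fold above ELA, and CHQ lay 12.6-fold below AZA on the same slide. Gbe1, the glycogen branching enzyme, showed the opposite contrast, with 10.43, 11.27, 10.43 and 12.70, and CHQ was 4.83-fold above AZA.

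Of 21 other isoforms of glycolysis, 15 could be called in AZA against ELA, with 5 higher (33.3%, beside 14.3% of all genes tested) and 1 lower (6.67%, beside 11.4%). In CHQ against ELA 14 could be called, with 4 higher (28.6%, beside 14.8%) and 2 lower (14.3%, beside 11.9%). For 4 of 15 (26.7%, beside 5.48% of all genes tested) both treated arrays lay at least 1 unit above both untreated ones. These were Pfkfb2, Slc16a7, Pdk4 and Fbp2, the last of which was not well above background in ELA. Under the spike-in scaling only Fbp2 was left, and the mean over probes left out Slc16a7. Fbp1, which runs the phosphofructokinase step backwards, rose from 9.68 in ES to 12.25 in ELA and stood at 12.23 with AZA and 11.82 with CHQ. Eno3, the muscle enolase, had 12.97, 12.01, 11.92 and 10.08, and was 3.58-fold lower with CHQ than with AZA. The 21 genes of pyruvate dehydrogenase and the citric acid cycle gave no call in any comparison, apart from 2 lower calls in ELA against ES under the spike-in scaling, with differences from ELA of -0.62 to 0.29 with AZA and -0.57 to 0.57 with CHQ. Of the 7 genes of the pentose phosphate pathway only Pgls was called, 2.35-fold lower with CHQ (14.3% of the list, beside 11.9% of all genes tested). Under the 75th percentile scaling the citric acid cycle again gave no call, with medians of -0.37 and -0.41, and the pentose phosphate pathway gave 2 lower calls with each drug. Under the spike-in scaling the latter gave 2 lower calls in ELA against ES, 1 with AZA and 2 with CHQ. Over all genes tested, lower calls under the 75th percentile numbered 2482 of 16885 with AZA and 3201 of 16863 with CHQ. The spike-in scaling gave 3887 of 20510 in ELA against ES, 2845 of 18774 with AZA and 4205 of 18540 with CHQ.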

How the data were processed

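Cy3-labelled cRNA was hybridized to 4 single-colour Agilent 60-mer arrays, 1 per group. Per the file headers the images were read with Feature Extraction 10.7.3.1 (the submitters' processing notes name 9.1). The deposited scanner files hold spot and local background intensity that the authors had not normalized between arrays, while the deposited table of log2 values was background-corrected and quantile-normalized by the authors in limma. Here limma 3.58.1 (R 4.3.3) was used for normexp correction (offset 50) of the mean signal on the median local background and for quantile normalization. Control spots and spots with an outlier flag were then left out, repeated spots were averaged as log2 values, and 559 probes without a usable spot on at least 1 array were dropped. No spot was saturated. Normexp with an offset understates the change of dim probes. A gene was read from its brightest probe (highest mean of the 4 arrays), and gene names are those of the array files. Levels of different probes are not comparable. Of the 35 brightest member probes, 34 were well above background on all 4 arrays and 33 had 1 spot. The number of arrays limits the precision, and pooling leaves no measure of variation between experiments. A classification script was checked on simulated arrays. Levels on all 4 arrays are given for each gene called in any of the 4 comparisons, other probes where they differed in sign or by at least 1, and from the pathway lists the oxygen-sensing genes and the 3 largest differences per comparison among genes well above background on both arrays, of which 1 gene is not reported here. Members and lists were chosen with earlier results of these data known. The alternatives were a 75th percentile scaling, no background correction, an offset of 16, cyclic loess, scaling on 7 E1A spike-in probes, the authors' table, the mean over probes and other call rules. The 75th percentile scaling was applied to the processed signal of Feature Extraction and not to the normexp values, so it also differed in background correction. An array with a knockdown was not used here.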

Additional observations from a re-analysis of the deposited data

Results flagged for a closer look

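The Pfkm values of the AZA and CHQ arrays lay on opposite sides of that of ELA. It was 0.40 log2 units higher with AZA and -0.49 with CHQ, relative to ELA. Neither difference reached the call threshold, and the difference between the drugs was not tested, since each group was 1 array with no spread between experiments. Within slide 2 CHQ lay 0.89 below AZA.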

How the results depend on the processing

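No paired analysis was possible because each group was 1 array. Over the 35 genes and 4 comparisons, 140 differences were recomputed under each of 7 other ways of processing, and no called difference changed sign. Between 3 and 5 moved by more than 0.21 without background correction, with an offset of 16, with cyclic loess or in the authors' table, 29 in the mean over probes, 52 under the 75th percentile and 103 under the spike-in scaling. The last shifted the median of all genes tested to -0.59 (ELA against ES), -0.26 (AZA against ELA) and -0.39 (CHQ against ELA), and the 75th percentile shifted the latter 2 to -0.20 and -0.26. Calls over all genes tested in CHQ against ELA numbered 2829 higher and 2277 lower, but 3315 and 1657 under cyclic loess and 2053 and 4205 with spike-in scaling. The medians of the enzymes, the transporters and flux regulators and the other HIF targets under the spike-in scaling were -0.42, -0.64 and -0.27 for ELA against ES, -0.32, 0.35 and 0.95 for AZA against ELA, -0.72, 0.07 and 1.08 for CHQ against ELA and -0.27, -0.26 and 0.01 for CHQ against AZA. Under the 75th percentile they were -0.35, 0.42 and 0.96 for AZA and -0.56, 0.18 and 1.19 for CHQ against ELA. With AZA, the mean over probes gave 0.50 for the transporters, and the 8 other HIF targets well above background on all 4 arrays gave 1.76. Calls higher in ELA than in ES numbered 2 under the 75th percentile (Vegfa and Eno2), without background correction, with the offset of 16 and under cyclic loess, 3 in the authors' table and 0 under the spike-in scaling or a threshold of 1.5, and calls lower numbered 3 and 0 in these last settings. Calls lower with AZA numbered 2 under the 75th percentile and the spike-in scaling and 1 in the mean over probes, and those lower with CHQ 3 under both scalings. Over all genes tested, lower calls with AZA rose from 2176 to 2482 and 2845 under these 2 scalings. Those with CHQ rose from 2277 to 3201 and 4205. In CHQ against AZA, calls higher numbered 1 under the 75th percentile, cyclic loess and the spike-in scaling and 0 at a threshold of 1.5, and calls lower 0 under cyclic loess, the authors' table and a threshold of 1.5 and 1 in the mean over probes. The cause of these shifts was not tested.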
